A study of Mus musculus with 18 samples.

Results

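CD8+ T cells that had been primed with antigen and then held for 24 h with IL-2 were compared, across all genes measured, with the same kind of cells held in plain media. The comparison took the 3 arrays titled as IL-2 and the 3 titled as media control, 6 of the 18 arrays in the study, and it covered 18211 genes. The arrays of each group were taken by their titles, while the comparison and the gene lists were chosen with earlier results of these data known. Members of named gene lists were chosen from textbook roles.

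The cells came from OT-I mice, whose CD8+ T cells carry 1 transgenic T cell receptor for an ovalbumin peptide and were marked by Thy1.1; the labels gave male donors and no age. They were stimulated for 48 h with whole C57BL/6 splenocytes that had been irradiated and loaded with the peptide, and live cells were recovered on a density gradient. The media control group then received culture medium with no cytokine for 24 h, and the IL-2 group received medium with 100 ng/ml of IL-2. The remaining 12 arrays held IL-7, IL-15, IL-21 or IL-4 at the same dose and time, with 3 replicates in each group. All groups thus shared the transgene, the priming and the irradiated stimulators. Whether the replicates came from separate mice was not given beyond the word biological in the labels. RNA of replicates 1 and 2 was prepared with an RNeasy kit and RNA of replicate 3 with TRIzol and a DirectZol kit.

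IL-2 is a growth factor that activated T cells make and consume. Its receptor is built from an α chain, a β chain and the common γ chain that it shares with the receptors of IL-7, IL-15, IL-21 and IL-4, and hence these are called γc cytokines. Binding activates the kinases JAK1 and JAK3, which phosphorylate STAT5, and it also engages the PI3K and mTORC1 pathway. In CD8+ T cells IL-2 is known for driving proliferation, growth in size and the acquisition of killing functions.

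Each array read RNA with 3′-directed probe sets on an Affymetrix mouse whole-genome chip. The measured values were log2 levels of probe brightness, with no read depth, and the number of arrays limited the precision. The array medians as deposited were 5.79, 5.79 and 4.52 in media control replicates 1 to 3 and 5.78, 5.76 and 4.47 in IL-2 replicates 1 to 3, so that replicate 3 sat lower in both groups. Replicate 3 of IL-15 was also low, at 4.49, while replicate 3 of IL-4, IL-7 and IL-21 stood at 5.83, 5.84 and 5.84. All values below are log2 levels after quantile normalization of the 18 arrays, which set the medians at 5.58. A difference is IL-2 minus media control on the log2 scale, with its standard error (SE) and its limma p, adjusted across the 18211 genes (Benjamini-Hochberg); a gene was called at an adjusted p under 0.05. A level of 7.0, the 95th percentile of 38 genes of other tissues, was used as background, and 8720 genes had a mean above it in either group. Because these are bulk RNA samples, fewer cells of a type and less RNA per cell cannot be told apart.

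IL-2 moved a large share of the measured genes, in both directions. Of the 18211 genes, 2819 were higher with IL-2 (15.5%) and 2749 were lower (15.1%), together 30.6%. The counts given below for gene lists are to be read beside these shares. A rise of 1 or more on the log2 scale was found for 607 called genes and a fall of that size for 655. The corresponding numbers were 76 and 114 at 2 or more, and 15 and 22 at 3 or more. The median difference over all genes was 0.01, and the median SE was 0.13. Quantile normalization gives every array the same distribution, so the near-even split and the median near 0 follow partly from the scaling. With median centring instead, 3121 genes were called higher and 2290 lower. The 3 IL-2 arrays lay wholly above the 3 media control arrays for 2026 of the genes called higher, and wholly below for 1960 of those called lower; over all genes, called or not, such separation was seen for 12.9% upwards and 12.4% downwards. Among called genes, 311 rose from a media control mean under background and 259 fell to an IL-2 mean under it.

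**Figure D1:**
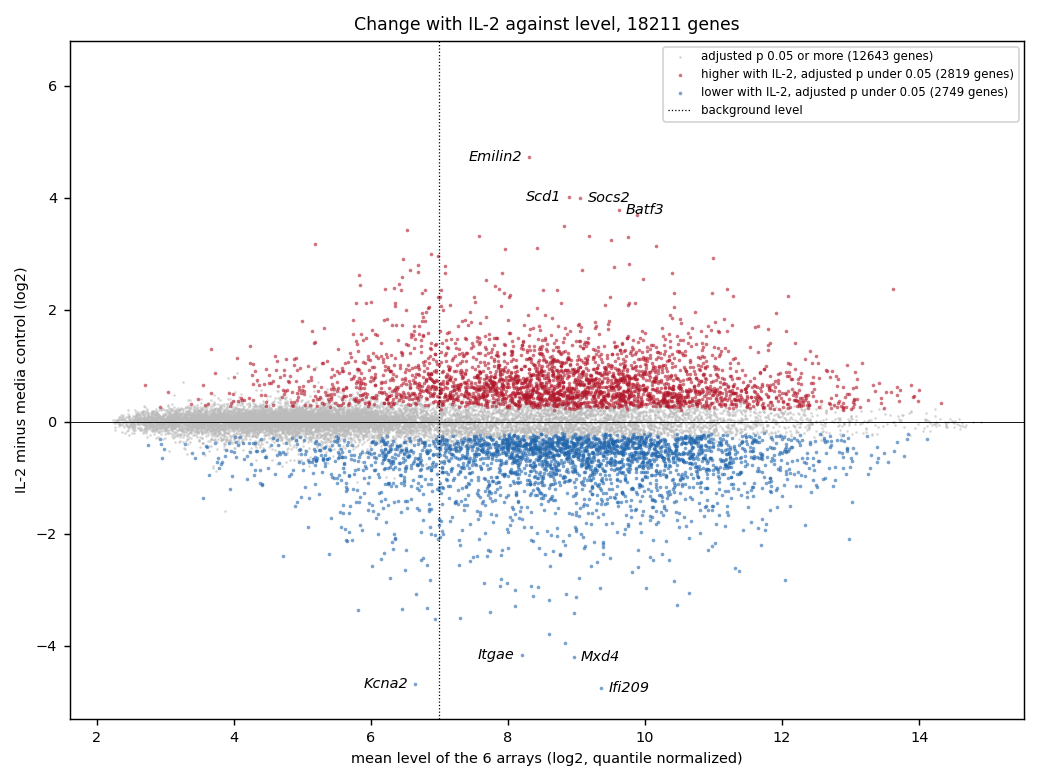
Difference between IL-2 and media control (vertical axis, log2) against the mean level of the 6 arrays (horizontal axis, log2, quantile normalized) for 18211 genes, each point 1 gene. The 2819 genes called higher (red) and 2749 called lower (blue) spread over the whole range of levels, and the widest differences run from 4.73 for Emilin2 to -4.76 for Ifi209.

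The 20 largest rises ran from 4.73 for Emilin2, which encodes an extracellular matrix glycoprotein, to 2.79 for Serpinf1. Emilin2 had log2 levels of 6.38, 5.66 and 5.80 in media control and 10.43, 11.56 and 10.03 with IL-2 (SE of the difference 0.41, adjusted p = 1.19e-06). Scd1, the desaturase that makes monounsaturated fatty acids, had log2 levels of 7.03, 6.48 and 7.14 in media control and 10.73, 11.42 and 10.52 with IL-2, a difference of 4.01 (SE 0.43, adjusted p = 5.78e-06). Nfil3, a basic leucine zipper transcription factor, had levels of 7.27, 7.79 and 7.49 in media control and 10.62, 11.50 and 10.39 with IL-2 (difference 3.32). Separate arrays and a level above background were part of the choice of the 20 rises, here and below. Scd1 and Nfil3 went from near background to well above it. Zbtb32, a zinc finger repressor, rose by 2.77 and Xbp1, the transcription factor of the unfolded protein response, by 1.93, and these stood among the 10 rises with the lowest p (adjusted p = 4.44e-08 for each). Hemk1, which encodes a methyltransferase, had the lowest adjusted p of all together with Lta (1.54e-09), with levels of 7.29, 7.22 and 6.71 in media control and 10.52, 10.83 and 10.33 with IL-2.

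The 20 largest falls ran from -4.76 for Ifi209, an interferon-inducible gene, to -3.06 for Mndal. Kcna2, a potassium channel gene, came second, with log2 levels of 8.25, 9.996 and 8.72 in media control and 4.13, 4.64 and 4.16 with IL-2 (difference -4.68, SE 0.30, adjusted p = 1.46e-07). Itgae, the αE integrin chain that holds T cells in epithelia, had log2 levels of 9.66, 11.33 and 9.89 in media control and 6.04, 6.00 and 6.32 with IL-2, a difference of -4.17 (SE 0.53, adjusted p = 2.49e-05). Xcl1, the chemokine that attracts cross-presenting dendritic cells, had levels of 10.74, 10.77 and 10.90 in media control and 6.29, 6.83 and 7.43 with IL-2, a difference of -3.95 (SE 0.28, adjusted p = 2.86e-07). Separate arrays were part of the choice of the 20 falls too, here and below. The IL-2 levels of Itgae and Xcl1 lay under or around background. Tbc1d4, a Rab GTPase-activating protein of glucose transporter traffic, fell by 3.51 and Slc6a19, a neutral amino acid transporter, by 3.50. Klhl24, a Kelch-family adaptor of ubiquitin ligases, had the lowest p among the falls (adjusted p = 1.86e-08), with levels of 9.45, 9.98 and 10.28 against 6.93, 7.54 and 7.52 and a difference of -2.57.

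**Figure D2:**
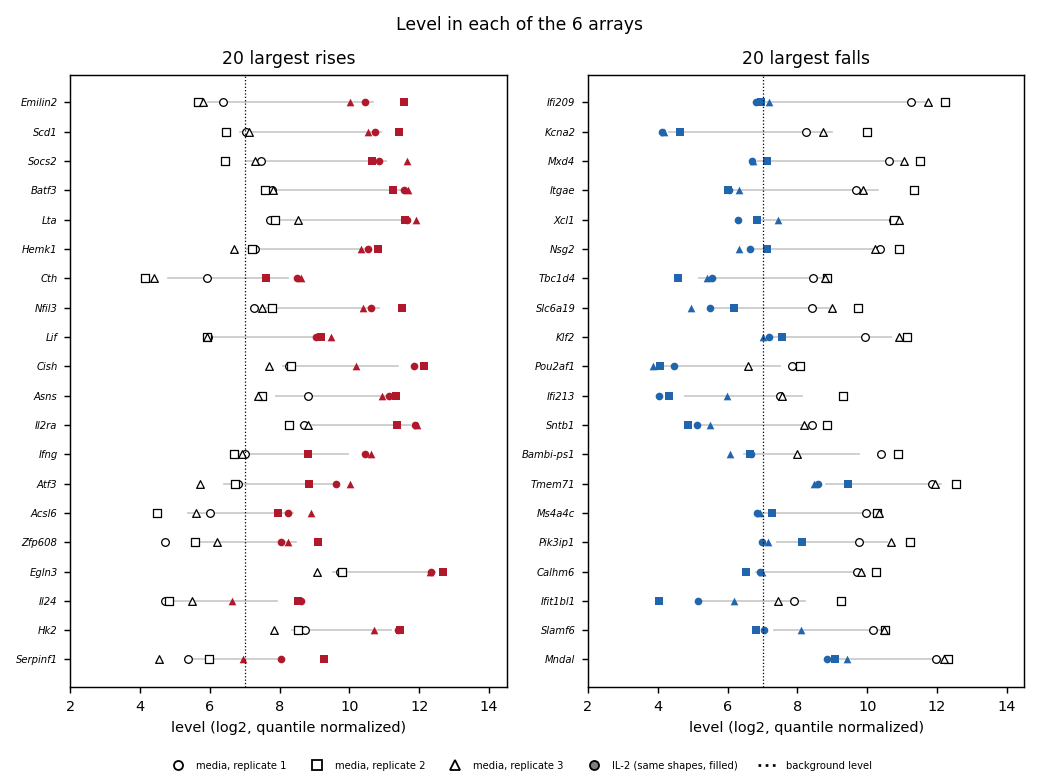
Log2 level (horizontal axis, quantile normalized) in each of the 6 arrays for the 20 largest rises (left) and the 20 largest falls (right) among called genes that lay above background and whose arrays did not overlap, which is part of the choice. Open shapes are media control, filled shapes IL-2, circles, squares and triangles replicates 1, 2 and 3, grey lines join the group means, and the dotted line is background at 7.0.

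Feedback inhibitors, which cytokine receptors are known to induce against themselves, were taken in 1 list with the PIM kinases, and most members rose with IL-2. Of 11 feedback inhibitors and PIM kinases measured, 7 rose and none fell (median difference 0.73, beside 0.01 over all genes and 15.5% of all genes called higher). Socs2, a suppressor of cytokine signalling, had log2 levels of 7.47, 6.43 and 7.29 in media control and 10.85, 10.65 and 11.66 with IL-2, a difference of 3.99 (SE 0.38, adjusted p = 2.28e-06). Cish, another SH2 inhibitor and a textbook STAT5 target, had levels of 8.28, 8.32 and 7.68 in media control and 11.85, 12.15 and 10.20 with IL-2, a difference of 3.30 (SE 0.27, adjusted p = 8.25e-07). In replicate 3 the IL-2 level of Cish was the lowest of the 3, yet it stayed above every media control array. Socs1 rose by 1.23, and the survival kinases Pim1 and Pim3 rose by 1.90 and 1.42. Socs3, the member best known for restraining gp130 receptors, had a difference of 0.20 (adjusted p = 0.344).

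JAK kinases and STAT factors, which carry the signal, were mostly lower. Of 11 JAK kinases and STAT factors, none rose and 8 fell, with a median difference of -0.56. Jak1, the kinase bound to the β chain, had log2 levels of 12.35, 12.43 and 11.92 in media control and 11.04, 11.21 and 10.49 with IL-2 (difference -1.32, SE 0.12, adjusted p = 1.89e-06), and its groups did not overlap. Jak2 fell by 1.51 and Stat4, the factor of IL-12 signalling, by 0.81. Stat5b fell by 0.56 with overlapping arrays, and Stat5a had a difference of -0.10 that was not called. Among 8 γc receptor chains 1 rose (12.5%) and 2 fell (25%), beside 15.5% and 15.1% of all genes. The rise was that of Il2ra, the α chain of the IL-2 receptor and one of the 20 largest rises, with log2 levels of 8.69, 8.26 and 8.82 in media control and 11.89, 11.36 and 11.94 with IL-2 (difference 3.14, SE 0.19, adjusted p = 1.18e-07). Il2rg, the common γ chain, had a difference of -1.16 with separate arrays and Il7r, the IL-7 receptor chain, one of -0.61 with overlapping arrays. The β chain gene Il2rb had a difference of 0.17 (adjusted p = 0.307). Of 23 receptors for other cytokines 3 rose and 12 fell (median -0.68). Il12rb1, a chain of the IL-12 receptor, rose by 1.54, while Il6st, the gp130 chain, fell by 1.76, Tgfbr2 by 1.64 and Ifnar1, a chain of the type I interferon receptor, by 1.44. Il12rb2 rose by 0.99 with overlapping arrays, and its difference was larger in replicate 3 than in the pairs prepared with the other kit.

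Promoter sequence was set beside these values for the STAT motif TTCNNNGAA, the palindrome that STAT dimers are known to bind. RefSeq windows of GRCm38.p6, from 250 bases before to 50 after a gene's start, were at hand for 14460 of the 18211 genes and were searched on both strands. The motif stood in 8.57% of all windows, in 8.28% of those of genes called higher and in 8.40% of those of genes called lower; for changes of 1 or more the shares were 9.70% and 9.81%. A match is a description of the letters and no measurement of binding. Cish and Lta each held 2 matches, printed here in capitals because they belong to a feedback inhibitor and a cytokine among the largest rises; the Cish stretch is chr9:107296599-107296683 on the plus strand and the Lta stretch chr17:35205339-35205563 on the minus strand.
Cish: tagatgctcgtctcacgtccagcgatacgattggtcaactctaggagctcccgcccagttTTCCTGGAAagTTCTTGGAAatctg
Lta: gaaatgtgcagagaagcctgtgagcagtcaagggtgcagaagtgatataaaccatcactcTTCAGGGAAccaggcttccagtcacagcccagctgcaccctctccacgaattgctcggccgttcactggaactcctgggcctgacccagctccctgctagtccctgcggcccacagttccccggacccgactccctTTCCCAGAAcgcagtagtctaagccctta

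Cytokine genes rose more often than they fell. Of 23 cytokine genes 10 rose and 4 fell, with a median difference of 0.44. Only 10 of the 23 were above background in either group, and of these 6 rose and 2 fell. Ifng, the interferon of effector T cells, had log2 levels of 7.01, 6.70 and 6.91 in media control and 10.46, 8.83 and 10.63 with IL-2, a difference of 3.10 (SE 0.35, adjusted p = 8.82e-06). Lif, an IL-6 family cytokine, had levels of 5.95, 5.92 and 5.92 in media control, all under background, and 9.05, 9.19 and 9.48 with IL-2 (difference 3.31, SE 0.17, adjusted p = 4.44e-08). The IL-2 arrays lay above all media control arrays for both, although replicate 2 of IL-2 stood lower than the other 2 for Ifng. Osm, a close relative of Lif, rose by 2.03, Il24 by 2.91 and Csf2, which encodes GM-CSF, by 1.46. Il18, which acts on T cells to increase interferon-γ, fell by 2.80 and Il16, a CD4 ligand, by 1.58.

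Members of the TNF superfamily moved in both directions. Among 23 receptors of the family 5 rose (21.7%) and 4 fell (17.4%), beside 15.5% and 15.1% of all genes. Only 9 of the 23 were above background in either group, and of these 4 rose and 3 fell. The fit limited to 8398 genes above background called 2623 of them higher and 2600 lower. Among 13 ligands 4 rose and 4 fell (30.8% each). Tnfrsf4, the co-stimulatory receptor OX40, had log2 levels of 10.22, 9.66 and 10.16 in media control and 12.32, 12.56 and 12.27 with IL-2, a difference of 2.37 (SE 0.21, adjusted p = 1.44e-06). Cd27, a co-stimulatory receptor of naive and memory T cells, moved the other way, with levels of 11.37, 11.72 and 11.19 in media control and 9.38, 8.86 and 8.96 with IL-2 (difference -2.36, SE 0.20, adjusted p = 9.73e-07). Neither gene had overlapping groups. Tnfrsf9 (4-1BB) rose by 1.78 and Tnfrsf18 (GITR) by 1.40. Among the ligands, Fasl, the death ligand of killer cells, rose by 1.35 and Tnf by 1.07, whereas Ltb, the membrane partner of lymphotoxin, fell by 0.82.

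Genes of the killing machinery did not move as a block. Of 23 cytotoxic granule genes 4 rose and 9 fell (median 0.01), and with the values as deposited for 18 arrays, not quantile normalized, 2 rose and 1 fell. Gzmb, the granzyme that activates caspases in target cells, had log2 levels of 12.78, 12.32 and 12.19 in media control and 14.80, 14.68 and 14.89 with IL-2, a difference of 2.36 (SE 0.18, adjusted p = 5.66e-07). Prf1, which forms the pore, had levels of 8.08, 7.80 and 8.04 in media control and 9.54, 9.08 and 9.68 with IL-2 (difference 1.46, SE 0.14, adjusted p = 2.82e-06). Both were separate between the groups in every array. Gzma, a granzyme of a different specificity, had a difference of 0.06 (adjusted p = 0.918), and Ctsw, a cathepsin of killer lymphocytes, fell by 1.94. Of 17 killer lectin-like and NK receptors none rose and 5 fell. Only 3 of the 17 were above background in either group, and 2 of these fell. Klrd1, the CD94 chain that pairs with NKG2 receptors, had levels of 13.24, 13.54 and 13.58 in media control and 10.03, 10.49 and 11.33 with IL-2, a difference of -2.83 with no overlap.

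Of 31 transcription factors of effector and memory differentiation 5 rose (16.1%, beside 15.5% of all genes) and 14 fell (45.2%, beside 15.1%), with a median of -0.10. Prdm1, the Blimp-1 repressor of terminal effector cells, had log2 levels of 4.84, 5.24 and 5.46 in media control and 7.44, 7.81 and 7.69 with IL-2, a difference of 2.46 (SE 0.23, adjusted p = 1.94e-06). Bcl6, its textbook antagonist, had levels of 7.30, 7.80 and 7.02 in media control and 4.29, 5.21 and 5.24 with IL-2 (difference -2.46, SE 0.29, adjusted p = 1.32e-05), a fall that was smaller in replicate 3 than in the other pairs. The groups did not overlap for either gene. Bach2, a repressor of effector genes, fell by 2.10, Lef1 by 1.82, Id3 by 1.54 and Ikzf2 (Helios) by 2.96. Id2 rose by 1.34 with overlapping arrays. Among 34 AP-1, BATF, IRF and NR4A factors 8 rose and 13 fell; Fosl2 rose by 2.00 and Irf4 by 1.52, whereas Irf1, Irf2, Irf7 and Irf9 fell by 1.51, 1.53, 1.77 and 1.40.

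Genes of ribosome assembly rose almost throughout. Of 59 ribosome biogenesis genes 53 rose and 1 fell, with a median difference of 0.99, against 15.5% of all genes called higher; the same counts were obtained without replicate 3. Noc2l, a nucleolar assembly factor, had log2 levels of 9.20, 8.61 and 7.82 in media control and 10.40, 10.33 and 9.62 with IL-2 (difference 1.57, SE 0.19, adjusted p = 1.83e-05). Gnl3, a nucleolar GTPase, rose by 1.56, Lyar by 1.52 and Nolc1 by 1.46, and the 1 fall was that of Wdr12, by 0.28. Myc, the transcription factor best known for driving ribosome production, had levels of 9.29 to 10.51 in media control and 10.98 to 11.64 with IL-2, a difference of 1.40 (SE 0.12, adjusted p = 1.34e-06). Within 13 genes of the MYC and MXD network 2 rose (15.4%, near the 15.5% of all genes) and 5 fell (38.5%, beside 15.1%). Mxd1, an antagonist of MYC, fell by 1.28. The E-box CACGTG, to which MYC is known to bind, stood in 10.2% of all promoter windows, in 14.4% of those of genes called higher (16.4% for rises of 1 or more), in 11.7% of those called lower and in 12 of the 53 windows of the ribosome biogenesis list (22.6%). Among the lists searched the share ran from 0% (type I interferon response) to 33.3% (tRNA synthetases, 4 of 12 windows). It was 25% for cholesterol synthesis (4 of 16), so the motif was not particular to the ribosome list.

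Genes of translation and of amino acid synthesis were mostly higher. Of 19 tRNA synthetases, which charge tRNAs with amino acids, 16 rose and none fell (median 0.98), and of 26 translation factors 16 rose and none fell (median 0.38). Iars, the isoleucine enzyme, had log2 levels of 10.08, 9.45 and 9.39 in media control and 11.52, 11.49 and 11.19 with IL-2, a difference of 1.76 (SE 0.15, adjusted p = 1.06e-06). Among 23 genes of amino acid synthesis and known ATF4 targets 17 rose and 1 fell, with a median of 1.31. ATF4 is the transcription factor of the amino acid starvation response. Asns, which makes asparagine, had levels of 8.82, 7.49 and 7.38 in media control and 11.13, 11.34 and 10.92 with IL-2, a difference of 3.24 (SE 0.30, adjusted p = 1.79e-06). Cth, which makes cysteine, had levels of 5.92, 4.13 and 4.39 against 8.50, 7.62 and 8.61 (difference 3.43, SE 0.34, adjusted p = 3.38e-06). Both were separate between the groups. Pycr1 of proline synthesis rose by 2.71, the stress gene Nupr1 by 2.67 and Chac1, which degrades glutathione, by 2.13, while Glud1 fell by 0.33.

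The ATF4 motif TGATGNAA stood in 3.24% of all promoter windows, in 3.00% of those of genes called higher and in 5.86% of those higher by 1 or more. It stood in 7 of 22 windows of the amino acid list (31.8%), those of Asns, Chac1, Got1, Nupr1, Pycr1, Trib3 and Vldlr, and in 5 of 12 windows of the tRNA synthetases (41.7%), those of Aars, Gars, Iars, Tars and Yars. All 12 genes rose with IL-2. The lists were drawn up partly from known ATF4 targets, so these shares describe the lists and add no independent evidence. The stretches around the match, in capitals on either strand, are printed for 3 of these genes, a synthetase, an asparagine enzyme and a stress gene, at chr6:7693205-7693292 on the minus strand (Asns), chr2:119350992-119351076 on the plus strand (Chac1) and chr13:49682077-49682154 on the plus strand (Iars).
Asns: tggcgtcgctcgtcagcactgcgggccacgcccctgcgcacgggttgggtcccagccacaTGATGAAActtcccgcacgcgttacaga
Chac1: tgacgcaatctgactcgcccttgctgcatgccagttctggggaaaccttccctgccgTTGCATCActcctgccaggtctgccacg
Iars: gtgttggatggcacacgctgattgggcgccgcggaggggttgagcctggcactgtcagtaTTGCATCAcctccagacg

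Transporters and the pathways they feed were largely higher. Of 25 nutrient transporters 17 rose and 2 fell (median 0.73). Slc7a5, the LAT1 chain that imports large neutral amino acids, had log2 levels of 9.71, 8.67 and 8.82 in media control and 11.99, 11.83 and 11.34 with IL-2, a difference of 2.65 (SE 0.21, adjusted p = 5.66e-07), with no overlap. Its partner chain Slc3a2 rose by 1.17, the zinc importer Slc39a10 by 2.07 and the glucose transporter Slc2a1 by 1.83, while Slc43a1, another amino acid transporter, fell by 1.92. Serine synthesis and one-carbon metabolism had 12 of 15 genes higher and none lower (median 0.80), led among genes above background by Shmt2 at 1.68 and Shmt1 at 1.40. Nucleotide synthesis had 18 of 27 higher and 2 lower (median 0.58). Dhodh of pyrimidine synthesis rose by 1.57 and Ctps by 1.54, whereas Ctps2, which catalyses the same step as Ctps, fell by 1.02. In polyamine synthesis 6 of 10 genes rose and 2 fell; Srm, spermidine synthase, rose by 1.84, and Sat1, which acetylates polyamines for breakdown, fell by 0.78 with overlapping arrays.

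Genes of lipid synthesis were mostly higher. Of 21 cholesterol synthesis genes 18 rose and 1 fell, with a median of 1.25. Lss, which closes the sterol rings, had log2 levels of 8.54, 7.98 and 8.60 in media control and 10.34, 10.68 and 10.32 with IL-2, a difference of 2.08 (SE 0.27, adjusted p = 3.10e-05). Msmo1 rose by 1.83, Idi1 by 1.64 and Sqle by 1.48, and Ebp fell by 0.25. Of 18 genes of fatty acid synthesis and desaturation 11 rose and 1 fell (median 0.66), with Fads2 at 2.52 and Fasn, the synthase itself, at 1.04. Among 23 genes of fatty acid oxidation 2 rose and 7 fell, with a median of 0.01; with the deposited values 1 rose and 0 fell. Cpt1a, which admits fatty acids to mitochondria, had levels of 9.77, 9.94 and 9.72 in media control and 8.62, 8.55 and 8.55 with IL-2 (difference -1.24, SE 0.12, adjusted p = 2.04e-06). Its array groups were separate. Slc25a20, the carnitine carrier, fell by 0.86, and Pparg, a nuclear receptor placed in this list, rose by 2.61 from under background.

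Glycolysis and hypoxia-response genes were mostly higher, and the respiratory chain had a median difference near 0. Of 23 glycolysis genes 17 rose and none fell (median 0.62). Hk2, the inducible hexokinase, had log2 levels of 8.72, 8.54 and 7.83 in media control and 11.39, 11.44 and 10.71 with IL-2, a difference of 2.82 (SE 0.23, adjusted p = 8.25e-07). Among 24 hypoxia-response genes 15 rose and 2 fell (median 0.91). Egln3, an oxygen sensor that HIF induces, had levels of 9.74, 9.79 and 9.07 against 12.34, 12.69 and 12.31 (difference 2.91, SE 0.24, adjusted p = 8.15e-07). Both genes were separate between the groups in every array. P4ha2 rose by 2.77, Bnip3 by 2.24 and Vegfa by 2.07, while Hif1a, the factor itself, had a difference of -0.06 that was not called. In the TCA cycle 14 of 28 genes rose and 2 fell (median 0.26), with Pcx, which refills the cycle with oxaloacetate, at 2.29. The respiratory chain and ATP synthase had 14 of 64 genes higher (21.9%) and 9 lower (14.1%), beside 15.5% and 15.1% of all genes, with a median of 0.04.

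Chaperone and proteasome genes were mostly higher. Of 31 chaperones 23 rose and none fell (median 0.68), with the mitochondrial chaperones Hspa9 and Hspd1 at 1.60 and 1.17. Of 35 genes of ER protein folding and secretion 15 rose and 3 fell, with a median of 0.08. Of 36 proteasome genes 26 rose and 4 fell (median 0.36). The 4 that fell were Psmb8, Psmb9, Psmb10 and Psme1, by 0.33, 0.69, 0.83 and 0.41 (the mean of all Psmb8 probe sets was 0.0047); these encode the catalytic subunits of the immunoproteasome and a chain of its activator, which interferon induces. Psme3, a chain of a different activator, had log2 levels of 8.87, 8.18 and 8.71 in media control and rose by 1.30.

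Of 45 DNA replication genes 25 rose and none fell (median 0.45), whereas of 54 mitosis genes 6 rose and 6 fell (11.1% each, median -0.04), beside 15.5% and 15.1% of all genes. Orc1, the origin recognition subunit that varies through the cycle, had log2 levels of 7.47, 6.61 and 6.61 in media control and 9.18, 9.01 and 9.19 with IL-2, a difference of 2.23 (SE 0.26, adjusted p = 1.23e-05). Cdc6, the origin licensing factor, rose by 1.30. Cdc25b, a phosphatase of mitotic entry, fell by 1.40 and Ccnb2, a mitotic cyclin, by 0.67. Without replicate 3 the mitosis counts were 11 higher and 6 lower. Among 30 G1 cyclins, CDKs and inhibitors 11 rose and 7 fell. Cdk6, a G1 kinase, rose by 2.25 and Ccne2 by 1.91. Ccnd3 rose by 1.39 at its brightest probe set, but the mean of its probe sets was lower with IL-2 (-0.35). The CDK inhibitors diverged, since Cdkn1a (p21) had levels of 8.73, 9.17 and 8.20 in media control and 11.04, 11.63 and 11.06 with IL-2 (difference 2.55, SE 0.23, adjusted p = 1.37e-06), and Cdkn1b (p27) fell by 1.04.

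**Figure D3:**
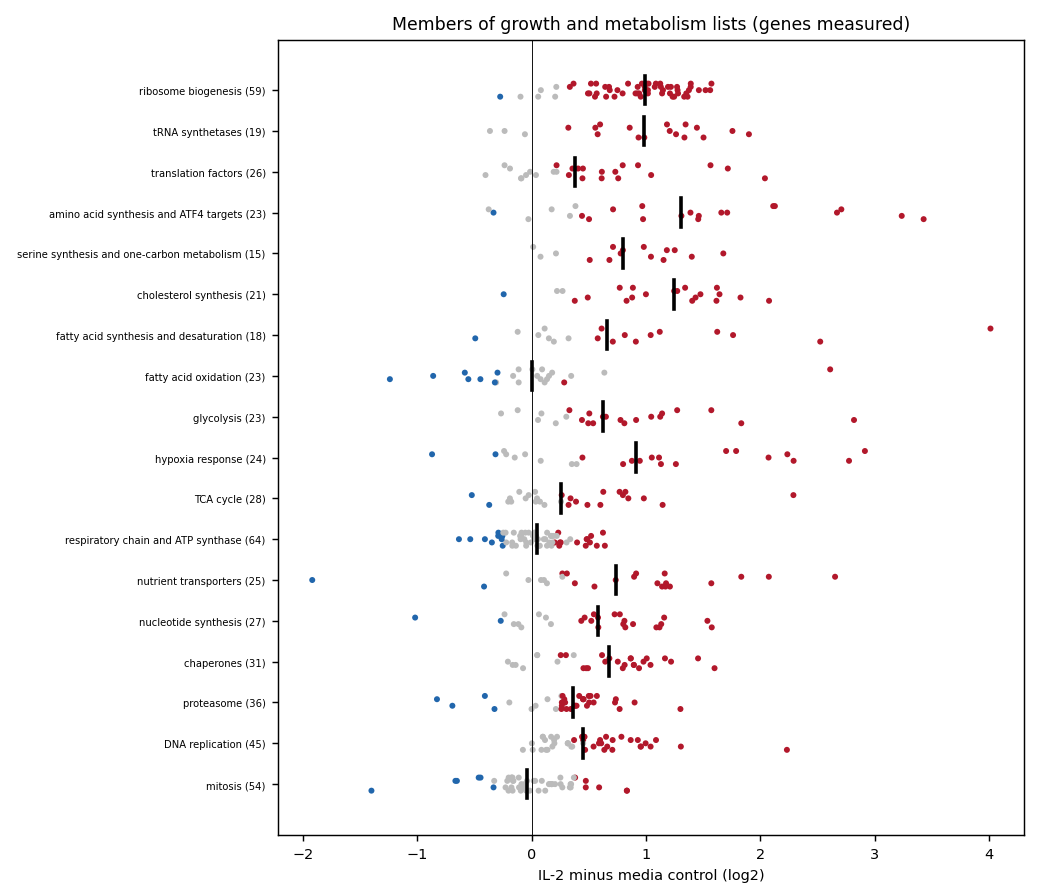
Difference between IL-2 and media control (horizontal axis, log2) for the members of 18 growth and metabolism lists, each point 1 gene, with red for genes called higher, blue for genes called lower, grey for genes not called, and a black bar at the list's median. The number measured stands beside each list; ribosome biogenesis (median 0.99) and cholesterol synthesis (median 1.25) lie almost wholly to the right of 0, while mitosis (median -0.04) and the respiratory chain (median 0.04) straddle it.

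Genes that keep T cells circulating through lymph nodes fell more often than they rose. Of 15 genes of lymph node homing and egress 1 rose and 8 fell, with a median of -1.25 beside 15.1% of all genes called lower. Without replicate 3 the counts were 2 higher and 8 lower, and the median was smaller in size, at -0.69. Klf2, the transcription factor that maintains this programme, had log2 levels of 9.94, 11.15 and 10.91 in media control and 7.18, 7.56 and 7.03 with IL-2, a difference of -3.41 (SE 0.27, adjusted p = 5.73e-07). Its target S1pr1, the receptor for exit from lymph nodes, had levels of 9.45, 10.48 and 9.48 against 6.36, 6.96 and 7.27 (difference -2.94, SE 0.36, adjusted p = 1.82e-05). In neither gene did an IL-2 array reach a media control array. Ccr7, the chemokine receptor of lymph node entry, fell by 1.66, and the 1 rise was that of Ptger4, a prostaglandin E2 receptor, by 1.49.

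Chemokine receptors, adhesion molecules and chemokines also fell more often than they rose. Of 19 chemokine receptors 1 rose and 7 fell. Only 5 of the 19 were above background in either group, and of these none rose and 4 fell. Cxcr3 and Cxcr6, both of effector cells, fell by 2.29 and 2.50. Of 24 integrin chains and adhesion molecules 2 rose and 11 fell (median -0.31). Itga4, the α chain of VLA-4, had log2 levels of 10.28, 10.39 and 10.64 in media control and 7.87, 7.61 and 7.45 with IL-2, a difference of -2.80 (SE 0.19, adjusted p = 2.21e-07), with no overlap. Its partner Itgb7 fell by 1.53 and Itgb3 by 1.67. Of 19 chemokines none rose and 8 fell (median -0.43), and of the 7 above background in either group 4 fell. Ccl5, a chemokine of effector and memory T cells, had levels of 10.41, 10.63 and 11.02 against 8.54, 8.15 and 9.37, a fall of 4.01-fold.

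Quiescence genes were mostly lower. Of 31 genes of quiescent and naive T cells 1 rose and 22 fell, with a median of -1.22. Pik3ip1, an inhibitor of PI3K, had log2 levels of 9.77, 11.21 and 10.68 in media control and 7.0, 8.12 and 7.16 with IL-2, a difference of -3.13 (SE 0.20, adjusted p = 1.46e-07), and its groups were separate. Btg2, an antiproliferative gene, fell by 2.41. The 1 rise was that of Ddit4, an mTORC1 inhibitor that stress also induces, by 0.95 with overlapping arrays. All 8 GIMAP GTPases, a family that supports lymphocyte survival, fell with IL-2 (median -0.82), Gimap6 most, by 1.26. Among 30 regulators of mTORC1 and PI3K 2 rose and 10 fell; the sestrins Sesn3 and Sesn1, which restrain mTORC1 when amino acids are scarce, fell by 2.46 and 1.61, and Rheb, its activator, rose by 0.53. Of 43 autophagy and lysosome genes 3 rose and 23 fell (median -0.42), with the autophagy gene Map1lc3a at -1.04 and the protease Ctsa at -1.29.

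Components of T cell receptor signalling were lower in most cases. Of 41 such genes 3 rose and 29 fell (median -0.59). Dgka, the kinase that removes diacylglycerol, had log2 levels of 12.39, 12.95 and 12.47 in media control and 10.60, 10.76 and 10.76 with IL-2, a difference of -1.90 (SE 0.15, adjusted p = 6.62e-07), with no overlap. Cd5, a negative regulator of the receptor, fell by 1.51 and Cd3e, a receptor chain, by 1.17. Malt1, of the complex that activates NF-κB, rose by 0.96. Of 18 other co-stimulatory and activation receptors 4 rose and 8 fell, with Slamf6 at -3.07 and Slamf7 at 1.36. Of 16 inhibitory receptors 3 rose and 7 fell, with Cd96 at -2.47 and Cd160 at -1.81; Pdcd1 (PD-1) had a difference of -0.44 (adjusted p = 0.0846) and Ctla4 one of 0.07. Of 21 ion channels of T cells 3 rose and 10 fell (median -0.38); the potassium channel gene Kcna2 fell most (-4.68), the calcium channel gene Orai2 fell by 1.66, and the potassium channel gene Kcnk5 rose by 1.73.

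Interferon-response genes fell more often than they rose. Of 41 genes of the type I interferon response 4 rose and 22 fell (median -0.51), and without replicate 3 the counts were 2 and 26. Rtp4 fell by 2.28, Ifi27l2a by 2.17, Xaf1 by 1.98 and Irf7 by 1.77. Media control replicate 2 was the highest of the 3 media control arrays for Rtp4, Ifi27l2a, Xaf1 and Irf7. The omission of replicate 3 kept that array. Ifitm2 rose by 1.48. Of 17 genes of MHC class I presentation 1 rose and 14 fell (median -0.51), with Tapbp at -1.24 and Tap2 at -0.80; the 1 rise, of H2-Q10 by 2.02, is uncertain because class I genes are near-identical copies.

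The interferon motif, a pair of TTTC set apart by NN and the core of the element bound by IRF and ISGF3 factors, stood in 3.64% of all promoter windows. It stood in 3.26% of those of genes called higher, 4.90% of those called lower and 8.65% of those lower by 1 or more, and in 18 of 30 windows of the interferon list (60%), a list made of known interferon targets. Matches of the 4 motifs described here shared bases in the windows of 16 genes, 11 of them between the STAT and interferon motifs. Calhm6, of the calcium homeostasis modulator family, had log2 levels of 9.70, 10.24 and 9.81 in media control and 6.92, 6.53 and 6.98 with IL-2 (difference -3.11). Mndal, an interferon-inducible gene, had levels of 11.97, 12.31 and 12.21 against 8.85, 9.06 and 9.41 (difference -3.06). Both belong to the 20 largest falls, and their matches are shown in capitals at chr10:34128007-34128096 (Calhm6) and chr1:173880194-173880283 (Mndal), both on the minus strand.
Calhm6: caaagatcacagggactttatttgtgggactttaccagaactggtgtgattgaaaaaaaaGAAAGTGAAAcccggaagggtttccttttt
Mndal: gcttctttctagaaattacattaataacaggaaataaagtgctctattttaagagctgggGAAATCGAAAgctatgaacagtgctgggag

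**Figure D4:**
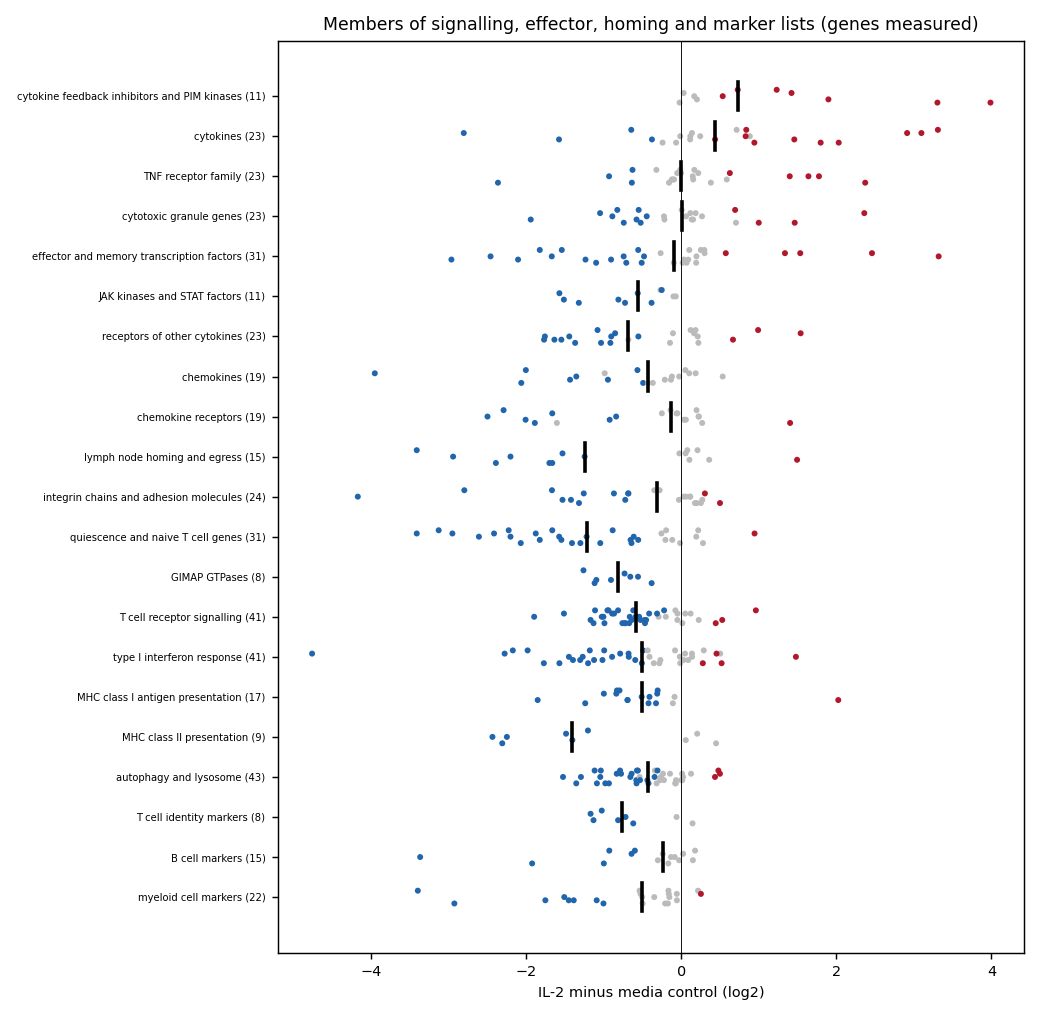
Difference between IL-2 and media control (horizontal axis, log2) for the members of 21 signalling, effector, homing and marker lists, drawn as in the plot of growth lists (each point 1 gene, black bar the median). The median of feedback inhibitors and PIM kinases (0.73) lies to the right of 0. Those of quiescence genes (-1.22), lymph node homing genes (-1.25, or -0.69 without replicate 3) and GIMAP genes (-0.82) lie to its left.

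The labelled cell type was borne out by its markers, and some markers of other splenic cells were read above background as well. All 8 T cell identity markers were above background, and their summed log2 level was 15.49 to 15.79 in media control and 14.86 to 15.22 with IL-2; 6 of the 8 fell, Cd8b1 by 1.13, and Thy1 and Cd2 had differences of -0.06 and 0.15 that were not called. Of 22 myeloid markers 1 rose and 8 fell. Their summed level was 10.47 to 13.30 in media control and 9.94 to 10.24 with IL-2, with the top value in media control replicate 2. Lyz2, the lysozyme of macrophages, had log2 levels of 8.81, 11.54 and 7.67 in media control and 6.30, 7.09 and 5.86 with IL-2. Csf1r, Cd14, Adgre1 and C1qa were under background in both groups, and 5 of the 22 were above it. Of 15 B cell markers 6 fell and none rose, with a summed level of 12.75 to 12.98 in media control and 11.55 to 12.17 with IL-2. The 3 above background were Ighm, Cd79b and Pou2af1, and all 3 fell. Ighm, the μ heavy chain, had log2 levels of 12.81, 12.54 and 12.54 in media control and 11.86, 11.30 and 11.95 with IL-2 (difference -0.93; the mean of its probe sets, -0.18, was not called), and Cd79b, a chain of the B cell receptor, had a difference of -0.60. Pax5, Ebf1 and Cd22 were under background. Pou2af1, a coactivator of B cells also made by activated T cells, had levels of 7.84, 8.06 and 6.59 against 4.46, 4.07 and 3.87 (difference -3.37).

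These marker levels moved together with several groups described above. MHC class II genes fell in 6 of 9 cases and rose in none (median -1.40), Cd74, the invariant chain, with log2 levels of 9.57, 10.16 and 9.72 in media control and 7.85, 7.38 and 7.29 with IL-2. The myeloid genes Ccl6 and Ccl9 of the chemokine list fell by 2.06 and 1.43, with 9.94 and 8.17 in media control replicate 2 and 5.44 and 5.37 in replicate 3, and the lysosomal genes Psap and Ctsd fell by 1.35 and 1.12 with their highest level in media control replicate 2. The part of other cells in these falls, and in those of the interferon list, was not tested. For MHC class II the counts without replicate 3 were again 6 lower and none higher, and for the lysosome list they were 3 higher and 27 lower. That omission kept media control replicate 2, which had the highest summed level of myeloid markers, so these counts cannot decide the part of other cells.

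Some of the largest differences belonged to genes that lie next to each other in the mouse genome; apart from members of the largest differences, these neighbours were chosen after their values were seen. Cish and Hemk1 are adjacent on chromosome 9, and both rose. Whether the Hemk1 probe set also reads RNA that starts at Cish was not tested. Ltb, Tnf and Lta stand in that order on chromosome 17, with differences of -0.82, 1.07 and 3.69. In the Ifi200 family on chromosome 1, Ifi213, Ifi209 and Mndal fell by 3.35, 4.76 and 3.06, while Ifi207, Ifi204, Ifi203 and Ifi202b were under background. On chromosome 19, Ms4a4c, Ms4a4b, Ms4a6c and Ms4a6b fell by 3.18, 2.09, 1.99 and 1.44. On chromosome 11, Slfn2 and Slfn1, both linked to T cell quiescence, fell by 2.22 and 2.95. Members of the last 3 families are similar in sequence, and how far their probe sets share transcripts was not tested.

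The genes that responded most to IL-2 were then set against the other γc cytokines. IL-2 itself was compared directly with each of them in the same fit, where 11.1% of all genes differed from IL-7 (5.21% higher and 5.92% lower with IL-2), 22.4% from IL-15 (11.5% and 10.9%), 10.6% from IL-4 (5.66% and 4.99%) and 21.4% from IL-21 (10.6% and 10.8%). Since the 20 rises and 20 falls were chosen as the largest with IL-2, these counts lean towards IL-2 and are given as a description. Among the 20 rises the IL-2 level was called above that with IL-15 for 20, IL-7 for 16, IL-21 for 13 and IL-4 for 12. Among the 20 falls it was called below that with IL-15 for 20, IL-7 for 18, IL-21 for 13 and IL-4 for 8. In 9 rises and 7 falls it was called beyond all 4. The 9 rises were Emilin2, Batf3, Lta, Cth, Lif, Asns, Atf3, Acsl6 and Zfp608, and the 7 falls Ifi209, Kcna2, Mxd4, Ms4a4c, Pik3ip1, Calhm6 and Mndal.

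Individual genes showed how the cytokines parted. All differences in this paragraph are against the same 3 media control arrays. Lta was higher by 3.69 with IL-2 and had differences of 1.67 with IL-7, -0.06 with IL-15, -0.83 with IL-4 and -1.78 with IL-21. Zfp608, a zinc finger gene, had differences of 2.96 with IL-2, 1.53 with IL-7, 0.17 with IL-15, 0.40 with IL-4 and -0.47 with IL-21. The feedback inhibitor Cish was not particular to IL-2, at 3.30 with IL-2, 2.92 with IL-7, 0.51 with IL-15, 3.88 with IL-4 and 1.84 with IL-21, and the direct tests against IL-7 and IL-4 did not call IL-2 higher. Ifng was 3.10 with IL-2 and 3.31 with IL-21, and 0.59, 0.44 and 1.63 with IL-7, IL-15 and IL-4. Nfil3 was the 1 gene of the 40 for which another cytokine was called further in the same direction, IL-4. Among the falls, Klf2 was -3.41 with IL-2 and -3.59 with IL-4, but -0.88 with IL-7 and -0.33 with IL-15, and Calhm6 fell with IL-2 while its mean with IL-4 stood at that of media control.

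**Figure D5:**
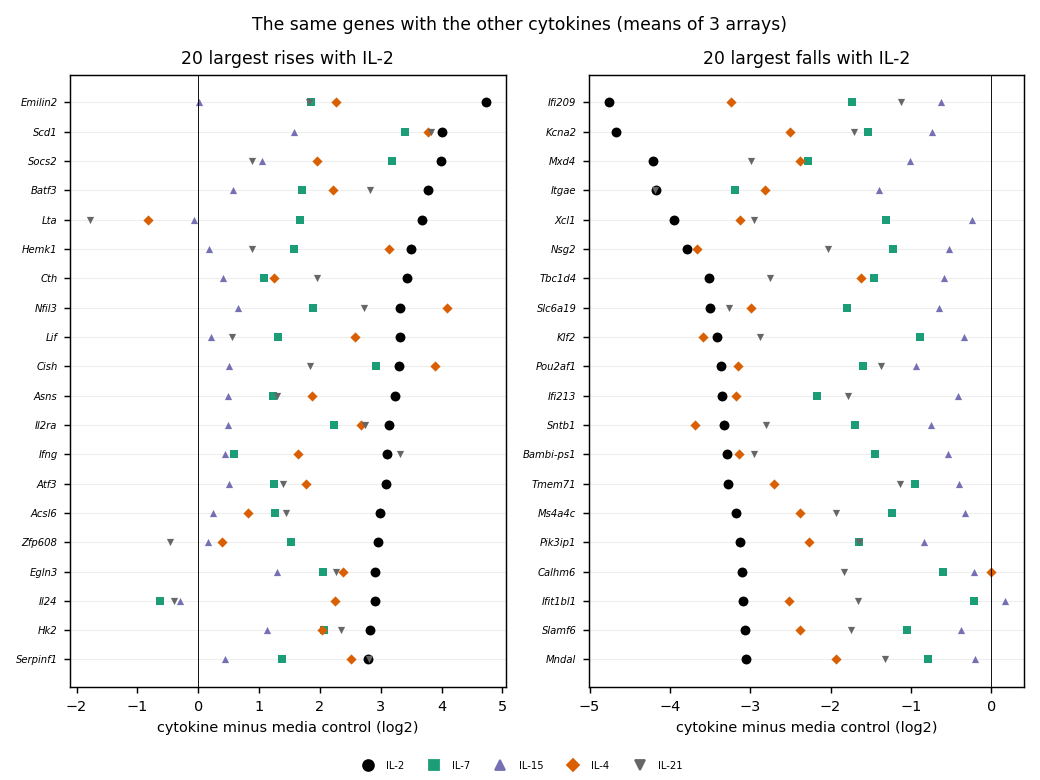
Difference from media control (horizontal axis, log2, means of 3 arrays) for the 20 largest rises (left) and falls (right) with IL-2, each symbol 1 cytokine at 100 ng/ml. IL-15 (purple triangles) lies nearest to 0 for most genes, Lta spans 3.69 with IL-2 to -1.78 with IL-21, and Klf2 stands at -3.41 with IL-2 and -3.59 with IL-4.

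The 3 pairs of arrays, each with its own media control, gave the same direction for most calls. A rise was seen in 3 of 3 pairs for 2791 of the 2819 genes called higher, and a fall in 3 of 3 for 2689 of the 2749 called lower. Of 1929 called genes with several probe sets above background, 1705 had all of them in 1 direction. The difference in replicate 3, whose RNA was prepared with the other kit, departed from that in replicates 1 and 2 for 153 genes (0.84% of those tested), by limma. The spread in that test came from replicates 1 and 2 of the 6 groups, so the single pair of replicate 3 was assumed to vary like them, and kit and replicate cannot be told apart.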

How the data were processed

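RNA of 18 samples (6 groups of 3) was hybridised to 1 array each. Per the labels and the study's methods, the authors scanned the arrays with Command Console 3.1.1 and summarised the probes by RMA in Expression Console 1.1, and they deposited log2 values per probe set; a genome build was not given in the sources used here. RMA normalizes arrays together, yet 3 deposited arrays had lower medians. Quantile normalization was therefore applied to all 18 columns. Of 45101 probe sets, 34958 had 1 gene symbol in the platform's annotation, 932 had several, 9211 were not listed, and 17 of these were named from the study's supplement; the probe set with the highest mean stood for each gene. One linear model (limma 3.58.1, R 4.3.3) held the 6 group means and the replicate number as a block, with 10 residual degrees of freedom and two-sided tests. For the arrays the study's methods name no test. The block rests on a check of pairing: deviations from group means correlated between samples of the same number at 0.442 or more in all 45 pairs, and at 0.384 or less between different numbers. A second fit tested whether the IL-2 difference in replicate 3 departed from replicates 1 and 2. The fit was tested on simulated data.

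Named genes were the 20 largest called rises and falls that were above background with separate arrays, the 10 with the lowest p in each direction, up to 8 called members of each list in each direction, any member of lists of up to 25 genes, and up to 5 genes in each direction for the kit test. The lists (1578 of 1694 entries matched a gene), the comparison and this rule were chosen with earlier results of these data known. The values of some called list members are not reported here. Promoter windows came from RefSeq tables of GRCm38.p6. Python 3.11.15 and pandas 2.3.3 were used, with matplotlib 3.10.9 for figures. Alternatives were the deposited values, other scalings, no block, the mean of a gene's probe sets, a filter on low levels, another variance model and the omission of arrays.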

Additional observations from a re-analysis of the deposited data

Results flagged for a closer look

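The difference between IL-2 and media control in replicate 3 (TRIzol and DirectZol) departed from that in replicates 1 and 2 (RNeasy) for 153 genes by limma. Replicate 3 is 1 pair of arrays, assumed to vary like replicates 1 and 2 of the 6 groups, which gave the spread, and kit and replicate cannot be told apart. Values are the log2 difference in replicate 3 minus that in the other 2, with its SE. The largest among the 10 named by rule were Ifit1 (3.29, SE 0.62), whose own differences were 0.15, -1.34 and 2.69 in replicates 1 to 3, and Ccr9 (2.84, SE 0.36), with differences of -3.32, -2.35 and 0.01. Jchain (2.25), Bambi-ps1 (2.06) and Snord89 (1.86) stood on the same side. On the other side were Ccn3 (-1.87), Gpr183 (-1.68), Pcsk1 (-1.60), Asb2 (-1.56) and Ccr6 (-1.53). Atf3, one of the 20 largest rises with IL-2, rose in every pair, by 2.83, 2.14 and 4.29 (kit difference 1.81). Il12rb2 (1.28), Bcl6 (1.01) and Ifi204 (0.91), named for other reasons, were also among the 153.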

How the results depend on the processing

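The number of genes called depended on the scaling and on the replicate block. With the values as deposited, the 18-array fit with the block called 398 genes higher and 363 lower, and without the block 40 and 36; the 3 arrays with lower medians are left uncorrected there. With quantile normalized values and no block the counts were 1430 and 1461. Leaving out 1 replicate number or 1 array gave 1763 to 3409 genes higher and 1642 to 3219 lower; without replicate 1 they were 1771 and 1666, and without replicate 2 1763 and 1642. Median centring, the mean of probe sets, the filter on low levels, the other variance model and the fits of the 6 arrays alone kept both counts within 1.5 times. Against the other cytokines, counts called in either direction were, with deposited values and the block, 171 (IL-7), 283 (IL-15), 218 (IL-4) and 520 (IL-21); with deposited values and no block 0 (479 genes at an unadjusted p under 0.05 in limma), 20, 18 and 79; and with quantile normalized values and no block 259, 1569, 377 and 1204, beside 2027, 4083, 1939 and 3903 in the fit reported. Leaving out a replicate number or an array gave 168 to 2658 for IL-7, 1510 to 5916 for IL-15, 408 to 2390 for IL-4 and 1277 to 4795 for IL-21, lowest without replicate 1 for all but IL-15, lowest without replicate 2. The kit count was 258 when median centred, 63 with the mean of probe sets and 288 above background only. Of 208 called genes named here, none reversed except Ccnd3 (-0.35) and Psmb8 (0.0047) under the mean of probe sets, and Stat5b and Ighm were no longer called there. The call was lost for 44 with deposited values and the block, 158 with deposited values and no block, 20 without the block, and 15 when some replicate or array was left out: C1qa, Ccl9, Ccn3, Ccr6, Ccr9, Cd79b, Ebp, Glud1, Il7r, Psmb8, Psme1, Sat1, Stat5b, Vldlr and Wdr12. The 44 include Jak1, Cpt1a, Cd3e, Cdkn1b and Tnf. Of 68 gene lists, 46 had at least 5 more members called in one direction than in the other; all 46 leaned the same way without replicate 3, without the block, when median centred and in the 6 arrays alone as deposited, and 39 did so with the deposited values of 18 arrays and the block. The other 7 there were cytotoxic granule genes (2 higher and 1 lower) and fatty acid oxidation (1 and 0), which leaned the opposite way, and the AP-1 group (4 and 4), MHC class I presentation (1 and 1), the pentose phosphate pathway, the respiratory chain and housekeeping genes (0 and 0 each), which leaned neither way.

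Limits are 3 replicates a group, 1 of them from a different kit, and brightness values whose change is compressed near background.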
